A study of Arabidopsis thaliana with 4 samples.

Results

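Leaf senescence and chlorophyll breakdown were read through 8 genes, chosen by locus name among the 32633 loci measured in leaves of WT and *ldl1 ldl2* *Arabidopsis* plants. They are the senescence-associated genes *SAG12* (AT5G45890), *SAG13* (AT2G29350), *SAG21* (AT4G02380) and *SAG29* (AT5G13170), the chlorophyll breakdown genes *SGR1* (AT4G22920), *NYC1* (AT4G13250) and *PAO* (AT3G44880), and the dark- and senescence-induced gene *SEN1* (AT4G35770). The libraries were 2 per genotype, numbered 1 and 2, from leaves of uninfected, untreated soil-grown plants 3 weeks after sowing. WT was Col-0, and *ldl1 ldl2* carried T-DNA insertions in the histone demethylase homologs *LDL1* and *LDL2* in the Col-0 background. All plants shared a day of 12 h light and 12 h darkness and a temperature set to 21 °C in the sample labels. The labels do not say what a replicate number marks, nor whether same-numbered plants were grown or harvested together. A T-DNA insertion need not lower the summed value of its gene, so the levels of the targeted genes do not check the genotype labels.

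In a leaf that ages or is kept in darkness, chlorophyll is taken apart stepwise while nitrogen and sugars are moved to other organs. Chlorophyll *b* is first turned into chlorophyll *a*, by the reductases NYC1 and NOL and then HCAR. SGR1 removes the magnesium from chlorophyll *a*, the pheophytinase PPH cuts off the phytol tail, and PAO opens the ring, which ends the green color. SAG12, a cysteine protease, is the usual marker of developmental senescence, whereas *SEN1* and other *DIN* (dark-inducible) genes also respond to darkness and low sugar.

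Values are FPKM, a fragment number scaled to the length of the transcript and to the mapped fragments of the library, so that levels can be compared between genes of different length. Pairs of values give replicate 1 before replicate 2. From 11388 to 12113 loci had a value of 0 in a library. Low values of transposon genes longer than 2000 bases moved in steps, which put the depth at an estimated 13400000 to 15300000 fragments per library, with 68.6% to 75.4% of those low values within 0.15 of a whole step. The 4 leaf markers summed to 48010 to 57800 FPKM and the 3 seed storage markers were at 0 in every library. The 4 root markers summed to 11.1 to 15.3 FPKM, with *TIP2;3* at 0 in all. The 4 flower markers summed to 0.529 and 10.6 FPKM in WT plants against 1.65 and 4.68 in *ldl1 ldl2*. The clock genes differed by number. The morning gene *CCA1* stood at 50.4 and 3.85 FPKM in WT plants against 16.6 and 2.44 in *ldl1 ldl2*, and the evening gene *TOC1* at 2.94 and 109 against 3.48 and 88.0. In bulk leaves, fewer cells of a type and less RNA per cell cannot be told apart.

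Across the 8 genes there were 3 patterns. *SAG29* was lower and *SAG21* higher in both *ldl1 ldl2* libraries than in either WT library. Neither passed the test for genotype alone across all genes. *NYC1* and *SEN1* followed the replicate number in both genotypes, and *SEN1* within replicate 1 was in addition 10.2-fold higher in *ldl1 ldl2*. *SGR1* and *PAO* were nearly level in all 4 libraries, though *SGR1* too was a little higher in both *ldl1 ldl2* libraries. *SAG13* was low, at an estimated 4.90 to 29.6 fragments, and *SAG12* was listed at 0 throughout. Of the 8, 6 passed the filter of a mean of at least 1 FPKM over the 4 libraries, together with 16905 loci in all.

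**Figure D1:**
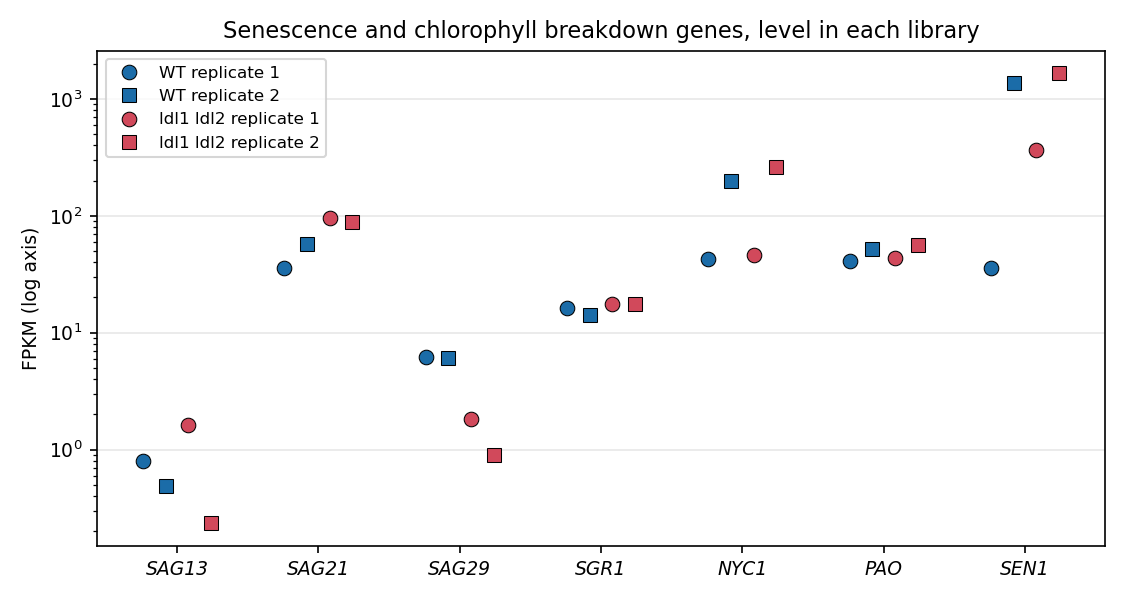
FPKM of 7 of the 8 genes in each library on a log axis, with color for genotype and symbol for replicate number; *SAG12* was at 0 in every library and cannot be drawn. *SAG29* lies between 0.909 and 1.83 in *ldl1 ldl2* and near 6 in WT, while *NYC1* pairs by replicate number and *SEN1* is lowest in WT replicate 1, at 36.0.

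*SAG29*, *SAG21*, *NYC1* and *SEN1* are given with the sequence just upstream of their first annotated base. The motifs discussed for clock, abscisic acid, sugar and WRKY regulation can thus be seen in place. Sequences are from the RefSeq assembly TAIR10.1, whose nuclear chromosomes have the lengths of TAIR10, and read toward the gene. Capitals mark matches, on either strand, to 5 motifs: CACGTG (the G-box, which contains the next motif), ACGTG (the core of the abscisic acid response element), TTGAC (the core of the W-box that WRKY factors bind), AAATATCT (the evening element of clock-regulated genes) and TATCCA (an element described in sugar-regulated genes). For *SEN1* the run stops at the neighboring gene.
SAG29, minus strand, chr5:4183355-4183604: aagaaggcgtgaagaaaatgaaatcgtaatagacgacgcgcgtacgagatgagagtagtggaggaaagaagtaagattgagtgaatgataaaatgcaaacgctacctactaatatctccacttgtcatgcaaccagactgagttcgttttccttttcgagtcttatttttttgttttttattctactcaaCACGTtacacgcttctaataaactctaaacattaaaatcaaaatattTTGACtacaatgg
SAG21, minus strand, chr4:1047106-1047355: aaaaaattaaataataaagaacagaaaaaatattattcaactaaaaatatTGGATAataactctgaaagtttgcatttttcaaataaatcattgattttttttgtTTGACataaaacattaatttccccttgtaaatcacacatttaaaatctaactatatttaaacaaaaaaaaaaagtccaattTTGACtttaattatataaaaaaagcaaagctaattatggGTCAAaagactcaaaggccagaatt
NYC1, minus strand, chr4:7687007-7687256: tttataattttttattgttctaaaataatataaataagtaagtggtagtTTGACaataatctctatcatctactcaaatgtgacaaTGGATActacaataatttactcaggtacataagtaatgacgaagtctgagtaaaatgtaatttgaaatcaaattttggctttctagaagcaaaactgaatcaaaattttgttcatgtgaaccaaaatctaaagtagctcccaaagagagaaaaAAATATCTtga
SEN1, plus strand, chr4:16944678-16944877: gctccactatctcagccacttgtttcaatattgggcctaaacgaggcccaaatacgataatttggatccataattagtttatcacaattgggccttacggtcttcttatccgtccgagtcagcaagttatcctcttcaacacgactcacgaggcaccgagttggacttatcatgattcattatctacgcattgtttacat

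The W-box core was found in the 250 bases upstream of 4 of the 8 genes, *SAG13*, *SAG21*, *SAG29* and *NYC1*, and of 44.9% of 27443 genes. *SAG21* had 3 of them, at 145, 64 and 25 bases from the gene. The evening element occurred upstream of 1 of the 8, *NYC1*, at 11 bases, and of 4.79% of all genes. *SAG29* and *SAG13* had the core of the abscisic acid response element (22.9% of all genes), *SAG21* and *NYC1* had TATCCA (13.6%), and none of the 8 had the G-box (6.49%). None of the 5 motifs matched upstream of *SEN1*. These matches are letters in a window and were not tested as sites.

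*SAG29* was the member that was lower in *ldl1 ldl2*. It encodes SWEET15, a sugar transporter of the plasma membrane that is known for its rise in senescing leaves, and lies on chromosome 5 from 4181042 to 4183354, minus strand, with 6 exons. In WT plants *SAG29* stood at 6.21 FPKM in replicate 1 and 6.03 in replicate 2, whereas the *ldl1 ldl2* libraries gave 1.83 and 0.909. The WT values lay close together and above both mutant values. The mean was 1.37 ± 0.651 FPKM in *ldl1 ldl2* against 6.12 ± 0.131 in WT (SD, n = 2), which is 3.40-fold lower within replicate 1 and 6.63-fold lower within replicate 2. On the scale of log2(FPKM + 1), which understates the change of low genes, the ratios were -1.35 and -1.88. At the estimated depth these values stand for about 125 and 121 fragments in WT and 33.0 and 18.7 in *ldl1 ldl2*.

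Of the 6 members tested, *SAG29* was the only 1 lower by at least 2-fold in both numbers, where 25 of the 16905 loci (0.148%) were. No member was at least 2-fold higher within both numbers, against 236 loci (1.40%). The ratio of *SAG29* was the 154th lowest of all loci tested within replicate 1 and the 61st lowest within replicate 2. It did not pass the test for genotype alone across all genes, however. A fit with the replicate number as a block, given at the end, did call it. In limma for genotype alone, on log2(FPKM + 1), the log2 fold change of *SAG29* was -1.62 ± 0.32 (SE). The unadjusted p was 0.00572, and with Benjamini-Hochberg adjustment it was 1.00. That test called 0 of the 16905 loci (0%) for genotype, with 394 at an unadjusted p under 0.05 and a lowest adjusted p of 0.755, and its error includes the difference between replicate numbers. An exact permutation test of 2 libraries against 2 cannot go below 0.33. *SAG29* and *SAG21* are also on the gene list that the study drew from these same libraries, which is therefore not independent evidence of their direction.

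The log2 ratio of *SAG29* was -1.35 within replicate 1, where the flower markers summed to 0.529 FPKM in WT and 1.65 in *ldl1 ldl2*. Without WT replicate 2, the library with the most flower marker signal, its log2 fold change was -1.63, in a fit that leaves WT replicate 1 alone. What part flower tissue had in the *SAG29* values was not tested. The next measured gene on 1 side, *VNI2* (AT5G13180), a NAC factor that delays leaf senescence, lies 12901 bases away. It was at 83.2 and 92.6 FPKM in WT plants against 81.9 and 87.6 in *ldl1 ldl2*. Its genotype ratios, -0.02 and -0.08, were near 0, unlike those of *SAG29*. On the other side *PBS1*, 1032 bases away, stayed between 17.2 and 19.7 FPKM. Of the 16 other SWEET transporters measured, 9 passed the filter. None of the 9 was at least 2-fold different between genotypes within both numbers. This is near the shares of all loci, 1.40% higher and 0.148% lower. The most abundant of them by the mean, *SWEET11*, which loads sucrose into the phloem, was at 115 and 131 FPKM in WT plants against 146 and 81.7 in *ldl1 ldl2*, so its genotype ratio changed sign with the number. *SWEET12*, its partner in phloem loading, was at 16.9 and 111 FPKM in WT plants against 35.4 and 98.5 in *ldl1 ldl2*, higher in replicate 2 of both genotypes. *SWEET4* rose with it in replicate 2 and *SWEET2*, a vacuolar transporter, fell (adjusted p in limma of 0.000512 and 6.86e-05).

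*SAG21* was higher in *ldl1 ldl2*. It encodes a late embryogenesis abundant (LEA) protein of mitochondria that is induced by oxidants and pathogens as well as by senescence, and lies on chromosome 4 from 1046042 to 1047105, minus strand. WT replicates 1 and 2 gave 36.0 and 57.9 FPKM, and the *ldl1 ldl2* replicates 95.3 and 89.3. The WT libraries were further apart than the mutant ones. *SAG21* averaged 92.3 ± 4.30 FPKM in *ldl1 ldl2* against 46.9 ± 15.5 in WT (SD, n = 2), 2.65-fold higher within replicate 1 and 1.54-fold within replicate 2. The limma log2 fold change was 1.00 ± 0.35 (SE), with an unadjusted p of 0.0412 and an adjusted p of 1.00. An annotated miRNA gene overlaps *SAG21* on the same strand and was not separated from it here.

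The relatives of *SAG21* are given for comparison. *DI21*, a drought-induced LEA gene of the same family, was at 6.60 and 43.2 FPKM in WT plants against 7.09 and 15.1 in *ldl1 ldl2*. *LEA2* was at 73.3 FPKM in WT replicate 1 and between 5.40 and 12.2 in the other libraries. *LEA37* was listed at 0 in all 4 libraries. The longest stretch of coding sequence that *SAG21* shares exactly with any of the 3 is 20 bases, shorter than a read.

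*SEN1* had the widest range of the 8 genes. It lies on chromosome 4 from 16944878 to 16946266, plus strand, with 2 exons, and is named for its induction in senescing and darkened leaves. In WT plants *SEN1* stood at 36.0 FPKM in replicate 1 and 1371 in replicate 2, whereas the *ldl1 ldl2* libraries gave 368 and 1654. WT replicate 1 stood far below the other 3 libraries, and in both genotypes replicate 2 was the higher. Within WT the libraries differed 38.1-fold and within *ldl1 ldl2* 4.49-fold, log2 ratios of 5.21 and 2.16. Of all loci tested, the WT ratio was the 31st highest and that of *ldl1 ldl2* the 235th. In limma with genotype as a term, *SEN1* rose in replicate 2 by a log2 fold change of 3.69 ± 0.50 (SE), adjusted p = 0.000173; without the genotype term the adjusted p was 0.0757, above the threshold of 0.05.

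Between genotypes, *SEN1* was 10.2-fold higher in *ldl1 ldl2* within replicate 1 and 1.21-fold higher within replicate 2. The log2 ratio of 3.32 within replicate 1 was the 15th highest of 16905 loci, and the ratio of 0.27 within replicate 2 was the 2592nd. With 1 library per genotype and number, the difference between these ratios could not be tested. The pooled log2 fold change of 1.80 had an SE of 1.93, and without WT replicate 1 it was -0.81, in a fit that sets *ldl1 ldl2* replicates 1 and 2 against WT replicate 2 alone and so includes the difference between numbers. The size of the pooled value thus rests on WT replicate 1, while within replicate 2, which does not use that library, *SEN1* was still slightly higher in *ldl1 ldl2*. Of 9 clock genes examined, *CCA1* and *LHY* were lower in *ldl1 ldl2* within replicate 1 (log2 ratios of -1.55 and -1.27). The rest were higher there, from 0.18 (*PRR7*) to 0.78 (*LUX*), with *TOC1* at 0.19. The part of these differences in the *SEN1* ratio was not tested. The neighboring genes *LTO1* and *STY17*, 200 and 102 bases away, stayed between 32.2 and 38.3 FPKM and between 18.3 and 22.8 FPKM.

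Other genes of darkness and low sugar were at different levels in the same libraries. *DIN6*, also named *ASN1*, encodes an asparagine synthetase that packs nitrogen for transport, and it is named here because of its values. Its level was 36.2 and 488 FPKM in WT plants against 269 and 504 in *ldl1 ldl2*. WT replicate 1 was its lowest library, as for *SEN1* but also for *NYC1* and *DIN4*. The genotype ratios of *DIN6* were 2.86 and 0.05 on the log2 scale. *DIN4*, a subunit of branched-chain keto acid dehydrogenase, was at 13.3 and 63.3 FPKM in WT plants against 16.6 and 51.5 in *ldl1 ldl2*, and did not show the step within replicate 1. *DIN10*, a raffinose synthase family gene, went the other way, at 492 and 235 FPKM in WT and 728 and 281 in *ldl1 ldl2*. Of the 7 *DIN* genes listed besides *SEN1*, 5 passed the filter. In limma 2 rose in replicate 2 (*DIN4* and *DIN6*) and 1 fell (*DIN10*), beside 13.2% and 10.7% of all loci. None was called in the test for genotype alone, as in all loci (0%).

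*NYC1* followed the replicate number most evenly. It lies on chromosome 4 from 7684156 to 7687006, minus strand, with 10 exons. WT replicates 1 and 2 gave 42.5 and 199 FPKM, and the *ldl1 ldl2* replicates 45.9 and 262. The libraries paired by number, with little between-genotype difference inside each number. Replicate 2 was 4.69-fold higher in WT and 5.71-fold higher in *ldl1 ldl2*. In limma *NYC1* rose in replicate 2 by a log2 fold change of 2.34 ± 0.25 (SE), adjusted p = 2.55e-05. Its genotype log2 ratios were 0.11 and 0.39 within replicates 1 and 2, with a pooled log2 fold change of 0.25 ± 1.15 (SE).

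*NYC1* and *SEN1* were the 2 members at least 2-fold higher in replicate 2 within both genotypes, against 848 of 16905 loci (5.02%), and the 2 called higher in replicate 2 by limma, against 2238 loci (13.2%). No member was at least 2-fold lower in replicate 2 within both genotypes, against 734 loci (4.34%), and none was called lower, against 1806 (10.7%). The clock genes moved with these differences. *TOC1* and *CCA1* had log2 ratios between replicates of 4.80 and -3.41 in WT and of 4.31 and -2.35 in *ldl1 ldl2*. What part the time of harvest had in the levels of *NYC1* and *SEN1* was not tested.

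**Figure D2:**
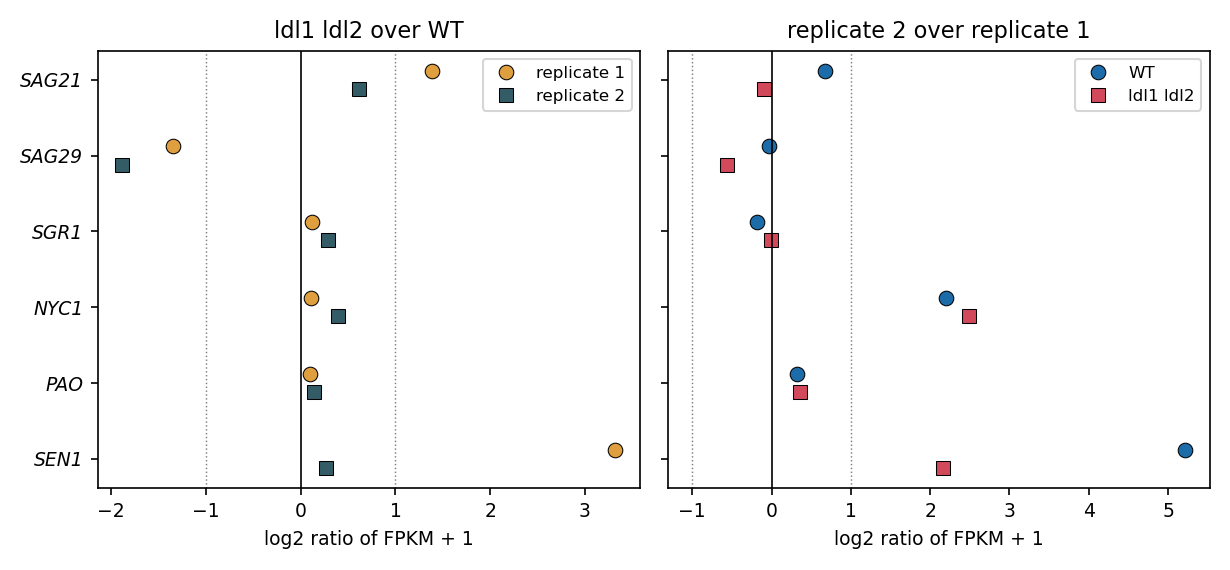
Log2 ratios of FPKM + 1 for the 6 members that passed the filter, on the left *ldl1 ldl2* over WT within each replicate number and on the right replicate 2 over replicate 1 within each genotype; dotted lines mark 2-fold. *SAG29* lies beyond the lower line in both numbers (-1.35 and -1.88), and *NYC1* (2.2 and 2.5) and *SEN1* (5.21 and 2.16) lie beyond the upper line in both genotypes.

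*SGR1*, also named *NYE1*, was nearly level. It encodes the enzyme that takes magnesium out of chlorophyll *a* and lies on chromosome 4 from 12016420 to 12018643, minus strand. Its level was 16.1 and 14.1 FPKM in WT plants against 17.5 and 17.5 in *ldl1 ldl2*. The mutant libraries were alike and a little above both WT libraries, by log2 ratios of 0.12 and 0.29. The limma log2 fold changes were 0.20 ± 0.26 (SE) for genotype and -0.09 ± 0.24 for number, adjusted p = 1.00 and 0.808.

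The paralogs of *SGR1* were not level. *SGR2* (AT4G11910), its closest paralog, was at 0.261 and 4.0 FPKM in WT plants against 0.648 and 6.38 in *ldl1 ldl2*. It was low everywhere and rose in replicate 2 of both genotypes, as *NYC1* did. *SGRL* (AT1G44000), the third gene of the family, was at 169 and 41.3 FPKM in WT plants against 100 and 67.7 in *ldl1 ldl2*. It was the most abundant of the family and fell in replicate 2, with log2 ratios of -2.01 and -0.56. The longest exact coding stretch shared by *SGR1* and *SGR2* is 28 bases.

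*PAO*, also named *ACD1*, was the other even member. It encodes the oxygenase that opens the chlorophyll ring and lies on chromosome 3 from 16383595 to 16386344, plus strand. Its level was 41.0 and 51.5 FPKM in WT plants against 43.9 and 56.7 in *ldl1 ldl2*. Replicate 2 was slightly higher in each genotype, and *ldl1 ldl2* slightly higher in each number. The log2 fold changes in limma were 0.12 ± 0.31 (SE) for genotype and 0.34 ± 0.24 for number, adjusted p = 1.00 and 0.332. A gene that overlaps *PAO* on the same strand, AT3G44870, was listed at 0 in every library. *TIC55*, a related oxygenase of the chloroplast that hydroxylates a later breakdown product, was at 64.3 and 47.9 FPKM in WT plants against 42.5 and 58.8 in *ldl1 ldl2*, without a common direction.

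Taken by sign alone, *SAG21*, *SGR1*, *NYC1*, *PAO* and *SEN1* were higher in *ldl1 ldl2* within both numbers, 5 of the 6 tested against 3341 of 16905 loci (19.8%), and *SAG29* was lower, 1 of the 6 against 5242 loci (31.0%). For *SGR1*, *NYC1* and *PAO* the ratios were at most 0.39 and the pooled log2 fold changes smaller than their SE. The median log2 fold change of the 6 was 0.23 for genotype and 0.32 for number, beside -0.04 and 0.14 over all loci tested.

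The steps around these enzymes differed in how they followed the replicate number. *HCAR*, which completes the conversion of chlorophyll *b* to *a* that NYC1 begins, was at 16.4 and 63.4 FPKM in WT plants against 14.0 and 45.2 in *ldl1 ldl2*. It rose in replicate 2 like *NYC1*. *NOL*, the partner of NYC1 in the reductase, was at 19.7, 20.7, 21.3 and 22.2 FPKM and did not follow it. *PPH* was at 41.7 and 94.9 FPKM in WT plants against 63.2 and 95.1 in *ldl1 ldl2*, and *ACD2*, which acts after PAO, stayed between 71.4 and 82.4 FPKM. *CYP89A9* modifies later breakdown products. It was at 5.24 FPKM in WT replicate 1, 17.5 in *ldl1 ldl2* replicate 1 and 41.4 and 40.4 in the replicates numbered 2. Of the 11 breakdown genes listed besides the members, all passed the filter, 5 rose in replicate 2 (*SGR2*, *HCAR*, *PPH*, *CLH2* and *CYP89A9*) and 1 fell (*SGRL*), beside 13.2% and 10.7% of all loci. None of the 11 was at least 2-fold different between genotypes within both numbers, where 1.40% of all loci were higher and 0.148% lower.

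On the side of synthesis, 2 of 21 genes rose and 3 fell in replicate 2, shares near the 13.2% and 10.7% of all loci and so no result about synthesis as a group. The 2 that rose encode protochlorophyllide oxidoreductases. *PORA* was at 0.314 and 8.24 FPKM in WT plants against 1.28 and 23.1 in *ldl1 ldl2*, and *PORB* was at 314 and 1010 FPKM in WT plants against 419 and 1131 in *ldl1 ldl2*. The 3 that fell were *GUN4* and *GUN5*, which act at magnesium chelatase, and *CAO*, which makes chlorophyll *b* from *a*. *CAO*, named here because of its values, was at 217 and 92.2 FPKM in WT plants against 174 and 107 in *ldl1 ldl2*. It was thus lower in the libraries in which *NYC1* and *HCAR*, of the reverse step, were higher. *NOL*, of that same reverse step, was nearly level. Of 17 antenna and Rubisco genes, 6 fell in replicate 2 and none rose, beside 10.7% and 13.2% of all loci. By genotype, 11 of the 17 were higher in *ldl1 ldl2* within both numbers (19.8% of all loci), none by 2-fold (1.40%).

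**Figure D3:**
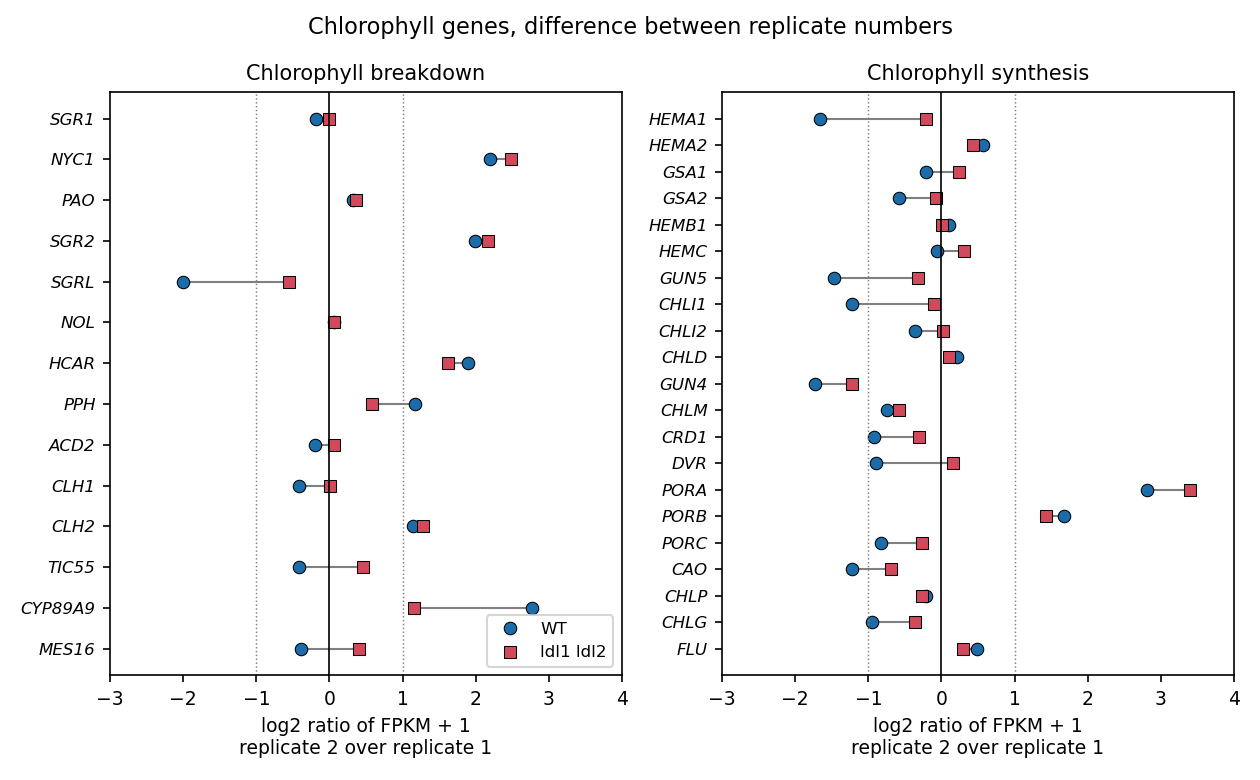
Log2 ratio of FPKM + 1 of replicate 2 over replicate 1 for 14 chlorophyll breakdown genes (left, 3 of them members) and 21 synthesis genes (right); circles are WT, squares *ldl1 ldl2*, dotted lines 2-fold. *NYC1*, *SGR2* and *HCAR* lie above 1 in both genotypes while *NOL*, *SGR1* and *PAO* lie between -0.18 and 0.36.

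*SAG12* and *SAG13* were the members below the filter. *SAG12*, on chromosome 5 from 18613239 to 18614963, plus strand, with 3 exons, was listed at 0 in each of the 4 libraries. At the estimated depth 3 fragments would stand at 0.151 to 0.172 FPKM, the level that a count of 0 allows for counting error only. *SAG13*, a short-chain dehydrogenase gene that is also induced by oxidants, lies on chromosome 2 from 12600914 to 12602556, plus strand, with 4 exons. Its level was 0.797 and 0.485 FPKM in WT plants against 1.62 and 0.235 in *ldl1 ldl2*. The WT values lay between the mutant ones, which differed 6.90-fold, and the values stand for an estimated 4.90 to 29.6 fragments. Its genotype log2 ratios were 0.55 within replicate 1 and -0.27 within replicate 2, without a common direction. The mean of *SAG13* was below the filter, so it was not tested. The short-chain dehydrogenase genes beside it were at far higher levels, with *AT2G29340* at 149 and 45.0 FPKM in WT and 127 and 43.7 in *ldl1 ldl2*, and *AT2G29360* between 61.8 and 80.2 FPKM. *SAG13* shares at most 50 coding bases exactly with any of the 11 relatives examined, less than the length of a read.

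By level, the order of the members differed between the numbers. In WT replicate 1 *NYC1* (42.5 FPKM), *PAO* (41.0), *SAG21* (36.0) and *SEN1* (36.0) stood close together, followed by *SGR1* (16.1) and *SAG29* (6.21). In WT replicate 2 *SEN1* (1371 FPKM) stood above *NYC1* (199), and *SAG21* (57.9) and *PAO* (51.5) were again close. In *ldl1 ldl2*, *SEN1* was highest in both libraries (368 and 1654 FPKM), and *SAG21* exceeded *NYC1* in replicate 1 (95.3 against 45.9) but not in replicate 2 (89.3 against 262). *SGR1*, *SAG29*, *SAG13* and *SAG12* kept the 4 lowest places in all libraries; *SAG13* (1.62 FPKM) came close to *SAG29* (1.83) in *ldl1 ldl2* replicate 1.

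Among 26 regulators of senescence and chlorophyll breakdown, 23 passed the filter. None was called in the test for genotype alone, as in all loci (0%). The error of that test includes the difference between replicate numbers. At least 2-fold higher in *ldl1 ldl2* within both numbers, as 1.40% of all loci were, were *WRKY53*, a factor that promotes early senescence, and *MYC2*, the main factor of jasmonate responses. *WRKY53* was at 3.06 and 3.29 FPKM in WT plants against 15.5 and 14.9 in *ldl1 ldl2*. *MYC2* was at 5.92 and 19.2 FPKM in WT plants against 44.3 and 133 in *ldl1 ldl2*, and it also rose in replicate 2. Both showed genotype ratios of like size in each number, where *SEN1* did not. They and *SAG14*, described further on, are on the study's list from these libraries as well. None of the 23 was at least 2-fold lower within both numbers, which is near the share of 0.148% of all loci.

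By number, 12 of the 23 regulators rose in replicate 2 and 1 fell, *WRKY70*, beside 13.2% and 10.7% of all loci tested. The abscisic acid factor *ABI5* was at 0.128 and 3.98 FPKM in WT plants against 0.236 and 3.04 in *ldl1 ldl2*. *NAC019*, a jasmonate-responsive factor, was at 0.786 and 9.51 FPKM in WT plants against 0.868 and 16.4 in *ldl1 ldl2*. *NAC046*, known to act on several chlorophyll breakdown genes, was at 0.656 and 3.46 FPKM in WT plants against 1.23 and 10.2 in *ldl1 ldl2*. All 3 were higher in replicate 2 of both genotypes, as *NYC1* was, while *SGR1* was nearly level in the same libraries. Within replicate 2, *NAC046* was also higher in *ldl1 ldl2*, by a log2 ratio of 1.33 against 0.39 for *NYC1*. *NAC072* and *ABF2* were also at least 2-fold higher in replicate 2 within both genotypes. *ORE1*, a NAC factor at the center of age-dependent senescence, is named here because of its values. It was at 9.16 and 34.8 FPKM in WT plants against 23.3 and 32.9 in *ldl1 ldl2*.

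Of 17 other senescence-associated and remobilization genes, 16 passed the filter and 1, *SAG14*, a blue copper protein gene, was at least 2-fold higher in *ldl1 ldl2* within both numbers. It was at 24.7 and 19.6 FPKM in WT plants against 106 and 111 in *ldl1 ldl2*, the same direction as *SAG21* and larger. *SAG113*, a phosphatase gene of the abscisic acid response, was at 2.04 and 19.9 FPKM in WT plants against 2.56 and 11.1 in *ldl1 ldl2*. *KAT2*, a thiolase of fatty acid breakdown, was at 71.0 and 249 FPKM in WT plants against 104 and 219 in *ldl1 ldl2*, higher in replicate 2 like *SAG113*. *SAG20* went the other way, at 236 and 32.8 FPKM in WT and 287 and 79.2 in *ldl1 ldl2*, as did *PPDK*, which makes substrate for nitrogen export, at 62.0, 21.0, 51.1 and 21.7. In all, 4 of the 16 rose and 2 fell in replicate 2, beside 13.2% and 10.7% of all loci, and the share that fell was near that background.

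**Figure D4:**
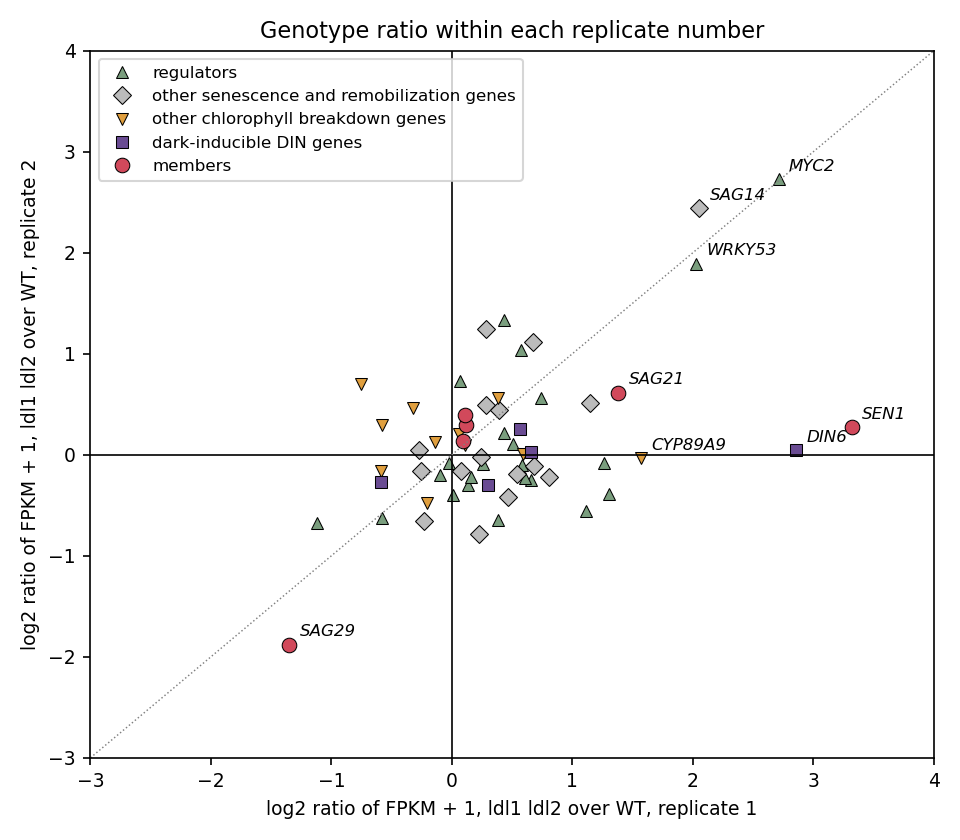
Log2 ratio of FPKM + 1 of *ldl1 ldl2* over WT within replicate 1 (horizontal) and replicate 2 (vertical), for the 6 members tested and 4 related gene lists; the dotted line marks equal ratios. *MYC2*, *SAG14*, *WRKY53* and *SAG29* (-1.35, -1.88) lie near the line, whereas *SEN1* (3.32, 0.27), *DIN6* (2.86, 0.05) and *CYP89A9* (1.57, -0.04) lie far to the right of it.

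For *SAG29*, the member at least 2-fold lower in *ldl1 ldl2* within both numbers, the 2 named genes with the most similar course over the 4 libraries were *GRP4* and *MLP423*, by the mean absolute difference of centered log2(FPKM + 1). *GRP4*, a glycine-rich RNA-binding protein gene, was at 12.7 and 10.7 FPKM in WT plants against 6.18 and 2.92 in *ldl1 ldl2*, a mean difference of 0.179. *MLP423*, a major latex protein-like gene, was at 16.5 and 21.9 FPKM in WT plants against 9.15 and 4.40 in *ldl1 ldl2*, a mean difference of 0.192. All 3 were lowest in *ldl1 ldl2* replicate 2. With 4 libraries this likeness is a description only.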

How the data were processed

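RNA from leaves of 2 WT and 2 *ldl1 ldl2* samples had been sequenced as stranded, paired-end mRNA libraries. The authors aligned the reads with TopHat2 and Bowtie2 and deposited FPKM per gene of TAIR10 from Cufflinks, with each library estimated on its own. Trimmomatic 0.33 is named in the submitters' processing notes. For Cufflinks, its strand setting and the other tools' versions were not given in the sources used here. From the deposited FPKM, log2(FPKM + 1) was taken without rescaling for loci with a mean of at least 1, and tested with limma 3.58.1 in R 4.3.3 (mean-variance trend, two-sided, Benjamini-Hochberg at 0.05), for genotype alone and for replicate number with genotype as a term. Both fits were first tested on simulated data. With 2 libraries per group, p-values measure no spread beyond these libraries. In limma each gene's variance is drawn toward a trend over all loci tested. A p-value thus rests partly on the spread of other genes.

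RefSeq's TAIR10.1 annotation, matched to 31893 loci by locus tag, gave gene positions and motif counts. Members and lists were chosen with earlier results of these data known. From each list the text names genes at least 2-fold different in the same direction in both within-number or both within-genotype ratios (at most 5 per list and comparison), direct paralogs of members, *CCA1* and *TOC1* of the clock, and for *SAG29* its neighbor *VNI2* and the 2 most similar genes. *SWEET11*, *DI21*, *LEA2*, *LEA37*, *AT2G29360*, *AT3G44870*, *LTO1*, *STY17*, *PPH*, *ACD2*, *CAO*, *GUN5*, *DIN6*, *ORE1* and *WRKY70* fall outside this rule and were chosen after their values were seen. So were *PBS1* and the clock genes *LHY*, *PRR7* and *LUX*. Alternatives were another pseudocount, other filters, other scalings, a replicate block and leaving out each library.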

Additional observations from a re-analysis of the deposited data

How the results depend on the processing

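With a pseudocount of 0.1, 87 genes in place of 25 were at least 2-fold lower in *ldl1 ldl2* within both replicate numbers, and with a mean of at least 5 FPKM, 16 were; the ratio of *SAG29* within replicate 2 became -2.60 with the smaller pseudocount. Genotype calls in limma numbered 0 to 3 when 1 library was left out, with 3 in each of the fits that lacked an *ldl1 ldl2* library. With the replicate number as a block they numbered 348, and *SAG29* was then called (adjusted p = 0.00465); the labels do not say that the numbers pair the samples, although the replicate differences of the genotypes correlated across genes (r = 0.726, 16905 genes, which are not independent). Calls by number fell from 4044 to 1685 without a filter on low values and to 1981 without the genotype term, under which *SEN1* lost its call. Left-out libraries turned the genotype log2 fold change of *NYC1* (-0.99 to 1.49), *PAO* (-0.066 to 0.30) and *SEN1* (-0.81 to 4.40). These fits have no term for the number and are unbalanced for it with a library gone, and within each number all 3 genes kept 1 sign. No call by number was possible with a library left out, since no residual degrees of freedom remained. With 2 libraries per genotype and values without counts, differences in low genes such as *SAG13* could not be settled.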
